A study of Arabidopsis thaliana with 14 samples.

Results

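The circRNAs described here are the only exonic circRNA of their gene, are of middle length and carry few reads. They were taken from a list of 5861 circRNAs of Arabidopsis thaliana and were selected on 5 entries of that list. They lie on the 5 nuclear chromosomes, are classed as exonic, belong to a gene with no other such circRNA, have a listed read number below 10, and span at least 300 and below 1000 bp of the genome. Of the 5861 circRNAs, 4418 were exonic and nuclear, 2355 of these were the sole one of their gene, and 1034 met all conditions. Listed reads and length chose these 1034 members, so both are given below as descriptions only.

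RNA of Col-0 plants was depleted of ribosomal RNA, treated with Ribonuclease R, which digests linear RNA, and sequenced in 14 strand-specific libraries. There was 1 library for each condition. Of these, 13 held a single material: complete plants at stage 1.14, 3.90, 6.50 or 8.00, organs (roots, stems, leaves, flowers, siliques), or plants at stage 3.90 under drought stress (300 mM mannitol), salt stress (200 mM NaCl), heat stress (38 °C) or without stress. The mixed sample pooled RNA of whole plants from 7 growth stages and was sequenced on another instrument with shorter reads. Each library pooled several plants. The list gives 1 value for each circRNA and none for each separate sample, so no growth stage, organ or treatment was compared.

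A circRNA forms when the spliceosome joins the 3′ end of an exon to the 5′ end of the same or an earlier exon, which is called back-splicing. The product is a closed ring that resists exonucleases, and it is recognised in sequencing by reads that cross the junction in the reverse order. Introns removed by the major spliceosome start with GT at the donor site and end with AG at the acceptor site, so a back-splice between annotated exons has AG just before the interval and GT just after it. In plants, circRNAs come from many housekeeping and regulatory genes, mostly at a low level compared with the linear transcript.

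The junctions of 4 members are shown first because they join annotated exon boundaries in genes of different function. Each line reads 5′ to 3′ across the junction on the listed strand, with 30 bases from the end of the circRNA followed by 30 bases from its start. Capitals mark the last 2 and the first 2 bases, where the ring closes. The sequences were read from the RefSeq TAIR10.1 genome.
Ath_circ_FC3339 (RAD4): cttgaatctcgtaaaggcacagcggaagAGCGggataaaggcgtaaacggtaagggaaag
Ath_circ_FC2533 (PETC): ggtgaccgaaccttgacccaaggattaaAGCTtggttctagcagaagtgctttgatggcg
Ath_circ_FC2550 (NSF): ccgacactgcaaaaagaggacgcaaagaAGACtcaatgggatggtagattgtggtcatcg
Ath_circ_FC1347 (ER): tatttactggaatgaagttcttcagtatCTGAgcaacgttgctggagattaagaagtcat

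Ath_circ_FC3339 lies at chr5:5455746-5456564 on the plus strand and runs from exon 3 to exon 6 of RAD4, whose product belongs to a family that recognises damaged DNA, with 9 listed reads. Ath_circ_FC2533 at chr4:1440438-1441248 joins exon 3 back to exon 2 of PETC, the Rieske iron-sulfur protein of the cytochrome complex of photosynthesis, with 8 reads. Ath_circ_FC2550 at chr4:2490232-2491221 spans exons 14 to 19 of NSF, the ATPase that takes apart SNARE complexes, with 6 reads. Ath_circ_FC1347 at chr2:11212508-11213470 spans exons 2 to 7 of ER, the receptor-like kinase ERECTA that shapes organs and stomatal patterns, with 7 reads. None of the 4 was in the list of the mixed sample.

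The sequence around the ends differed between members on annotated exon boundaries and members off them, and 3 examples show this. In each pair of lines the acceptor has 15 bases before and 15 bases after the start of the circRNA, with the AG in capitals, and the donor has 15 bases before and 15 after its end, with the GT in capitals.
PETC acceptor: tttttttggtggcAGcttggttctagcaga
PETC donor: acccaaggattaaagGTaagatcatgaaca
EM1 acceptor: aaaatggcgtcaaAGcaactgagcagagaa
EM1 donor: gttatcaggagatcgGTcacaaaggtggag
MOM acceptor: gaggctgcagaggAGccggaccaggagcag
MOM donor: ttctctatctttgtcGTtctggtgttatgc

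PETC shows the letters usual at plant splice sites. These are a stretch rich in C and T before the AG, a C next to it, AG as the last bases of the exon, and mostly A and G after the GT. The member of EM1, which encodes a late embryogenesis abundant protein of seeds, is Ath_circ_FC4909 at chr3:19214830-19215183, and neither of its ends is on an exon boundary. The member of MOM, a gene of transcriptional silencing, is Ath_circ_FC0245 at chr1:2502349-2502687, and it was assigned to the other strand than its gene. In both, the AG and GT stand among other letters. Of 7 positions with a usual base at splice sites, PETC held 6, EM1 2 and MOM 0.

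Parent genes were compared with the RefSeq annotation by identifier, and 1031 of 1034 were found. The exceptions were AT1G06149, AT2G27228 and AT3G02468, whose members had 5, 3 and 3 reads, and these 3 are left out of all shares of ends and strand. Of the 1031 genes, 1026 were protein-coding, 3 were pseudogenes, 1 was annotated as a lncRNA and 1 as an ncRNA. In 21 of the 1034 genes an intronic circRNA was listed beside the exonic one. Chromosome 1 carried 253 members, chromosomes 3 and 5 had 225 each, chromosome 2 had 166 and chromosome 4 had 165, which is 8.32 to 9.59 per Mb. Of the members, 534 (51.6%, Wilson 95% interval 48.6–54.7%) were on the plus strand. The intervals given here cover counting error only.

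The members had few reads by selection. The median was 4 listed reads, with a lowest value of 2, the least the authors accepted, and a highest of 9. Exactly 276 members (26.7%) had 2 reads and 42 had 9. Together they held 4463 of the 54873 listed reads (8.13%). The list heads this value as a mean, but it holds whole numbers, and for all 85 members that were also in the mixed sample it equalled the number of reads counted in that sample alone.

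**Figure D1:**
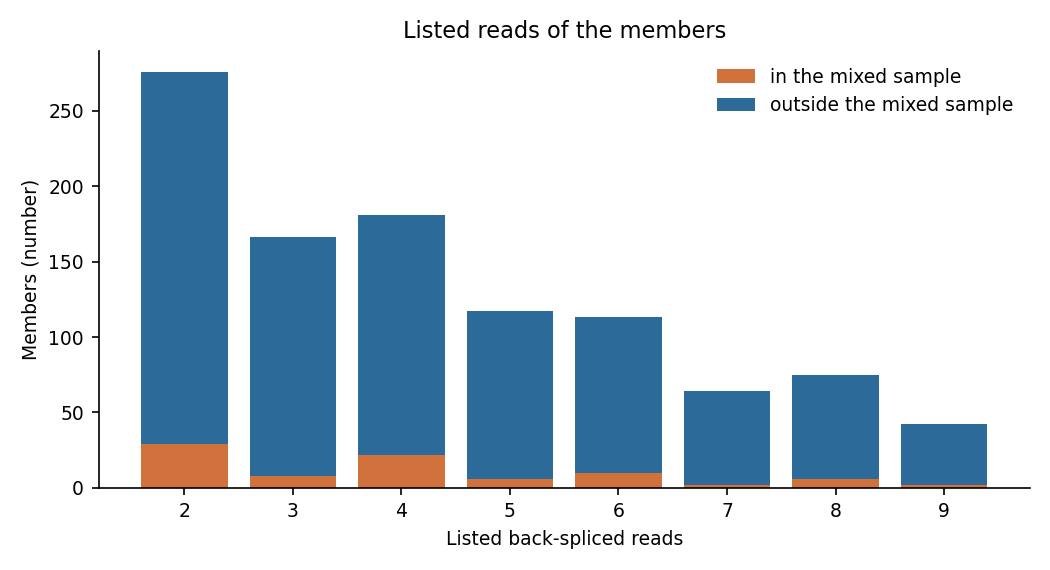
Number of members (vertical axis) by listed back-spliced reads (horizontal axis), with members in the mixed sample in orange and members outside it in blue. The highest bar is that of 2 reads with 276 members, 29 of them in the mixed sample.

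Members just inside a limit of the selection were close to circRNAs just outside in the value that the limit was set on. The longest member, Ath_circ_FC5784 of AT5G46620, spanned 995 bp with 2 reads, and the next longer circRNA outside, Ath_circ_FC1535 of ABCB1, spanned 1004 bp with 6 reads. The shortest members had 300 bp, among them Ath_circ_FC0892 of SMP1, a splicing factor gene. Those just below had 299 bp, in MEK1, AT5G38210 and AT5G44600, with 2, 4 and 8 reads. Of the 42 members with 9 reads, 33 had both ends on exon boundaries, and of the 45 annotated circRNAs of the same length range with 10 reads, 35 did.

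Most members coincided with annotated exons. Both ends were on exon boundaries of the parent gene in 757 of 1031 members (73.4%, 70.6–76.0%). In 89 members (8.63%) 1 end was on a boundary, in 76 (7.37%) no end was, and 109 (10.6%, 8.84–12.6%) lay on the strand opposite to their gene. Among the members on the strand of the gene, 757 of 922 (82.1%, 79.5–84.4%) had both ends on boundaries. All 1034 members had AG before and GT after the interval on the listed strand. find_circ, the program that made the list, accepts only such ends, so this count was set by the program. Introns with GT and AG on the strand of the gene do not have them on the other strand, and none of the 109 members on the opposite strand had an end on a boundary of its gene. The 185 members with no end on a boundary are exonic by the class given in the list, which was a condition of the selection. The article describes exonic circRNAs as having both ends at known exon boundaries. By the annotation used here, that held for the 757 members only.

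To see whether this was particular to the middle length, the members were compared with 3 other classes of sole exonic circRNAs, each from other genes. The short ones (591, below 300 bp) and the long ones (279, of 1000 bp or more) also had fewer than 10 reads. The abundant ones (451) had 10 or more reads at any length. Exon boundaries and strand were not used to choose any class, and Fisher's exact test (two-sided) was adjusted by Benjamini-Hochberg over 8 tests, or over the 6 that remain outside the mixed sample, giving the exact adjusted p-values below. The circRNAs in these tests are separate genes, not replicates of a condition, so the p-values refer to the lists. The classes also differ in how many of their circRNAs were in the mixed sample, as given below.

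Both ends were on exon boundaries in 73.4% of members, against 38.7% of short circRNAs, a difference of 34.7 percentage points (Newcombe 95% interval 29.9–39.4, adjusted p = 4.52e-42 by Fisher's exact test). Outside the mixed sample, the difference from short circRNAs was 41.6 points (exact adjusted p = 4.64e-35). Against 66.3% of long circRNAs, the share of members was 7.12 points higher (1.14–13.4, exact adjusted p = 0.0357). The difference from long circRNAs was smaller without the mixed sample. Outside it, 74.4% of 946 members and 183 of 250 long circRNAs were on boundaries, a difference of 1.22 points (exact adjusted p = 0.685), and with at least 3 reads it was 6.88 points (exact adjusted p = 0.114). Against 69.9% of abundant circRNAs, the members were 3.49 points higher, with an interval of −1.43 to 8.60 that includes 0 (exact adjusted p = 0.21). Restricted to abundant circRNAs of the same length range, the difference was −2.97 points (exact adjusted p = 0.432).

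Members on the opposite strand were fewer than among short circRNAs, 10.6% against 24.8%, a difference of −14.2 points (−18.3 to −10.3, adjusted p = 5.44e-13 by Fisher's exact test). Outside the mixed sample, the difference from short circRNAs was −15.6 points (exact adjusted p = 2.12e-09). Members on the opposite strand were more frequent than among long circRNAs, 10.6% against 6.09%, by 4.48 points (0.621–7.51, exact adjusted p = 0.0357), but with at least 3 reads the difference was 3.27 points (exact adjusted p = 0.241). Outside the mixed sample, 98 of 946 members and 5 of 250 long circRNAs were on the opposite strand, a difference of 8.36 points (exact adjusted p = 6.6e-06). Against 13.8% of abundant circRNAs the difference was −3.24 points (−7.14 to 0.289, exact adjusted p = 0.103). When genes overlapped by an annotated gene on the other strand were left out, it was −6.04 points (exact adjusted p = 0.0202).

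**Figure D2:**
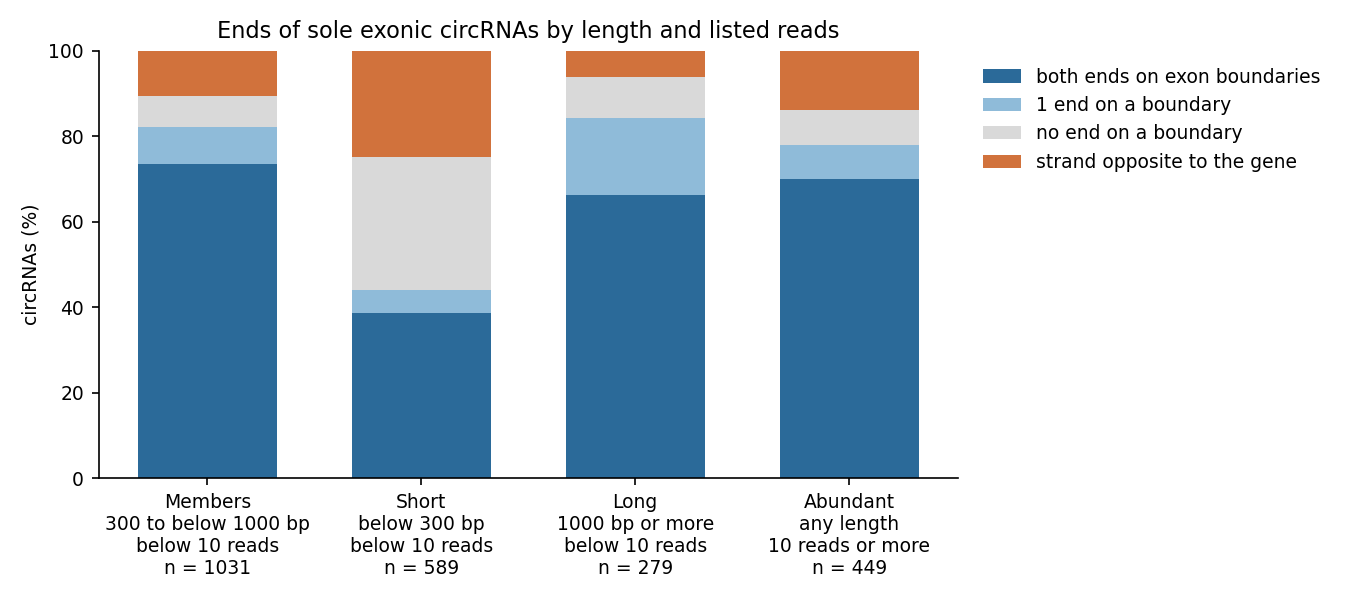
Share of sole exonic circRNAs (vertical axis, percent) whose ends lie on exon boundaries, in part or not at all, or that lie on the opposite strand of their gene, for members and the short, long and abundant classes (bars). The dark blue part is 73.4% in members, 38.7% in short, 66.3% in long and 69.9% in abundant circRNAs.

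Length also went with both measures among the members themselves. From 300 to below 400 bp, 154 of 254 members (60.6%, 54.5–66.4%) had both ends on boundaries, and from 400 bp upwards the shares of the 6 bins were 75.2% to 79.9%. The share on the opposite strand was 19.3% (14.9–24.6%) in the bin from 300 bp, 12.4% from 400 bp, 9.78% from 500 bp, 9.02% from 600 bp, 2.78% from 700 bp and 1.94% from 800 bp. In the last bin, from 900 bp, it was 0 of 47 members, which allows a share of up to 6.38%, taking 3 counts as the limit (Wilson upper limit 7.56%). By listed reads, neither share rose or fell at every step, and a trend was not tested. The share with both ends on boundaries was 70.3% (64.6–75.4%) at 2 reads, 71.9% at 7 reads and 78.6% (64.1–88.3%) at 9 reads, and the intervals at 2 and 9 reads overlap. The share on the opposite strand was 12.3% at 2 reads, 17.2% at 7, 4.0% at 8 and 7.14% at 9.

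**Figure D3:**
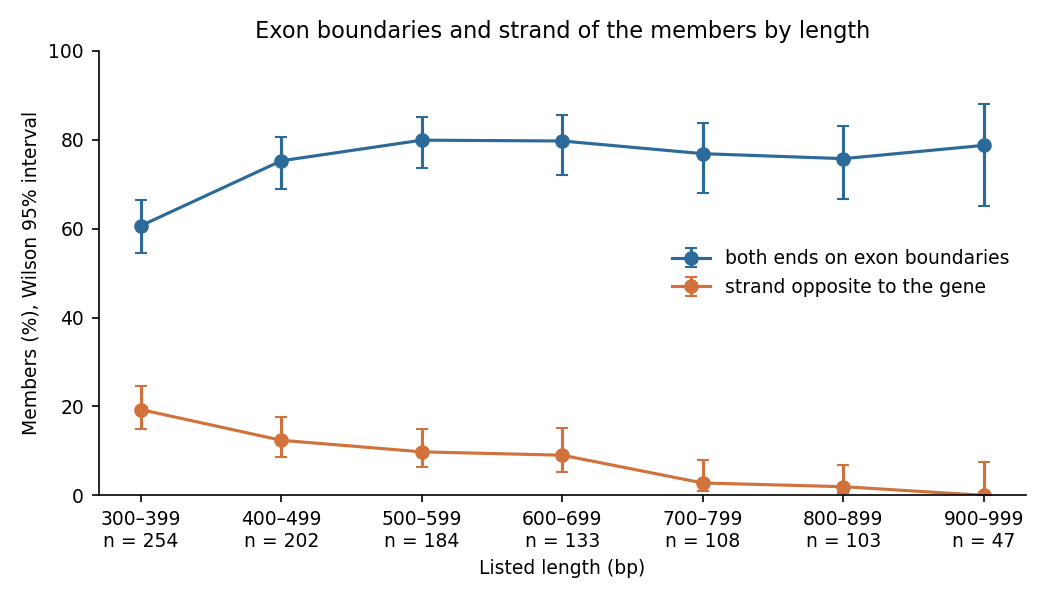
Share of members (vertical axis, percent, with Wilson 95% intervals) with both ends on exon boundaries (blue) and on the strand opposite to the gene (orange) in bins of listed length in bp (horizontal axis). The blue points are 60.6% in the shortest bin and 75.2% or more in all others, and the orange points go from 19.3% to 0%.

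The members on exon boundaries were short runs of internal exons. The 757 members spanned a median of 2 exons (range 1 to 6) of transcripts with a median of 9 exons. A single exon made up 128 of them (16.9%), 2 exons 281 (37.1%), 3 exons 225 (29.7%), 4 exons 96 (12.7%), 5 exons 22 (2.91%) and 6 exons 5. Their exons added up to a median of 374 bases and ranged from 159 to 896, and the introns between them had a median of 165 bases. The median length was 415 bp for 1 exon, 451 bp for 2, 598 bp for 3 and 963 bp for 6, whereas the median of listed reads was 4 for each number of exons up to 5.

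The 3 longest of the 5 circRNAs with 6 exons were Ath_circ_FC2550 of NSF (exons 14 to 19 of 21), Ath_circ_FC0790 of TBP2 (exons 2 to 7 of 10) and Ath_circ_FC1347 of ER (exons 2 to 7 of 27). The other 2 were Ath_circ_FC3833 of ckl12, a casein kinase gene, and Ath_circ_FC1172 of MOD1, an enzyme gene of fatty acid synthesis, which were named after their values were seen. TBP2 encodes a TATA-binding protein, and its member at chr1:20726497-20727486 had 2 reads and 429 exonic bases in 990 bp. The longest single exons were those of S6K2, AT5G63180 and AT1G27430. Exon 2 of S6K2, a kinase of ribosomal protein S6, gave Ath_circ_FC1869 at chr3:2649784-2650613, with 830 bp and 8 reads. Exon 2 of AT5G63180, a pectin lyase-like gene, gave a member of 747 bp with 6 reads, and exon 6 of AT1G27430, which encodes a GYF domain protein, gave 1 of 711 bp with 8 reads.

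The first exon was never included. It was in 0 of 757 members, which allows a share of up to 0.396%, and the last exon was in 1, Ath_circ_FC0866 of AT1G63855, a putative methyltransferase gene. A first exon has no acceptor and a last exon no donor, so find_circ could hardly list them. For this reason the members were set beside all 13438 runs of internal exons of that span in the same transcripts, a comparison chosen after the data were seen and given without a test. Shares of runs were taken within each transcript and then averaged over the transcripts, so they are not shares of the pooled runs. Exon 2 was the first exon in 241 members (31.8%, 28.6–35.2%), against 27.3% of such runs. A single exon made up 16.9% of members, against 11.6% of runs. The last exon but 1 was the end in 26.2% of members and 27.8% of runs.

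**Figure D4:**
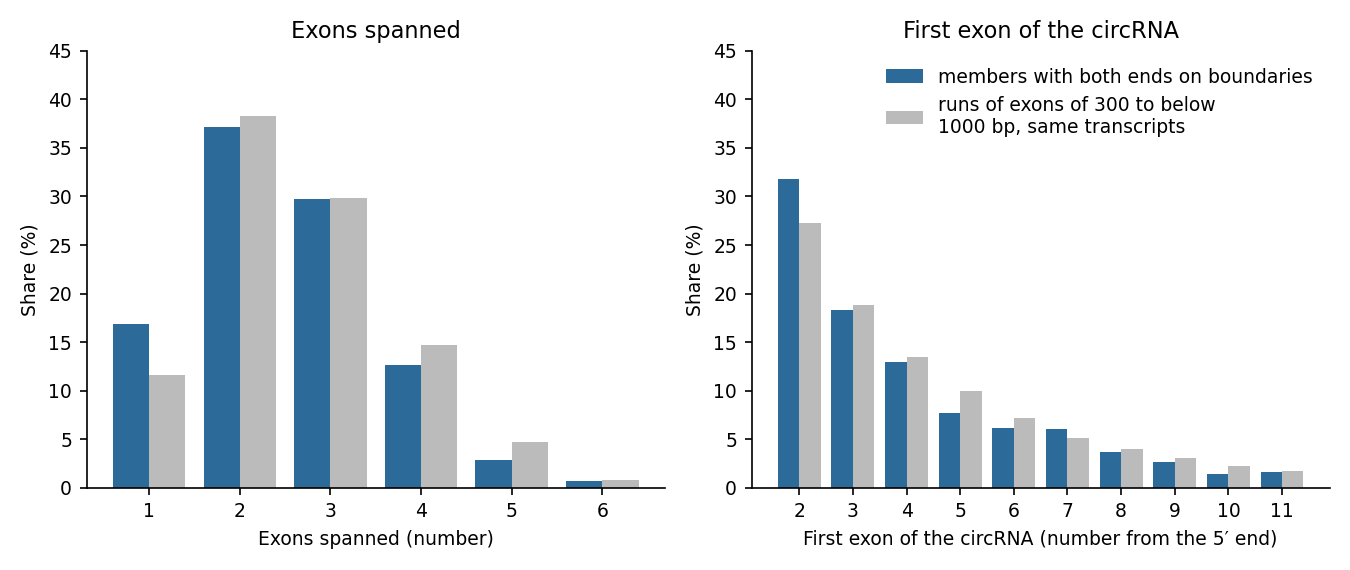
Share (vertical axis, percent) of the 757 members with both ends on exon boundaries (blue) and of all runs of internal exons of 300 to below 1000 bp in their transcripts (grey), by the number of exons spanned (left) and by the first exon, shown for exons 2 to 11 (right). The grey shares are means over transcripts of the share within each transcript. Members and runs follow the same shape, with 16.9% against 11.6% at 1 exon and 31.8% against 27.3% at exon 2.

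Most annotated exonic bases within these members were protein-coding. The list gives junctions only, so whether the introns inside were removed from the rings is not known. In 682 of 757 members (90.1%, 87.8–92.0%) all exonic bases were coding. The start codon was inside 59 members (7.79%) and the stop codon inside 16 (2.11%). The number of exonic bases was divisible by 3 in 302 of the 682 coding members (44.3%, 40.6–48.0%). For the coding runs of the same transcripts, the mean share over transcripts was 45.2%.

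The introns around the members were set beside those around all runs of the same transcripts, the members' own runs included. The intron before the circRNA had a median of 119 bases (range 64 to 1862) and the intron after it 112 bases (63 to 1284). Each transcript's median over its runs was also taken, and the medians of these values were 108 and 98 bases. Where the intron before was the first intron of the transcript it was longer, with a median of 206 bases for the 241 members starting at exon 2 and 93 bases for the 516 others. The intron after was longer than the median of its transcript's runs in 51.7% of 717 members and shorter in 32.1%. The intron before was longer in 41.0% and shorter in 40.7%, and for the 513 members not starting at exon 2 it was longer in 36.8% and shorter in 50.1%. The runs behind this last comparison still included those starting at exon 2. Among named members, Ath_circ_FC2378 of VAMP727, a SNARE of the vacuolar pathway, had 864 bases after it, and Ath_circ_FC1524 of AT2G36480, a Pcf11-like gene of mRNA cleavage, had 862 bases before it.

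The letters at the splice sites separated the groups of ends, as a description, since annotated exons carry these letters. The 7 positions were A and G as the last 2 bases of the circRNA, A, A and G as bases 3 to 5 after it, C before the AG, and G as the first base of the circRNA. Members with both ends on boundaries held a median of 5 of 7, those with 1 end 4, those with no end 2 and those on the opposite strand 1. The last base was G in 83.4% of members with both ends on boundaries, 76.4% with 1 end, 23.7% with no end and 33.9% on the opposite strand. In the 20 bases before the AG, the median share of C and T was 65% with both ends on boundaries, 60% with 1 end, and 50% in the other 2 groups. At most 2 of the 7 letters were held by 15 of 757 members with both ends on boundaries, against 59 of 76 with no end and 75 of 109 on the opposite strand.

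**Figure D5:**
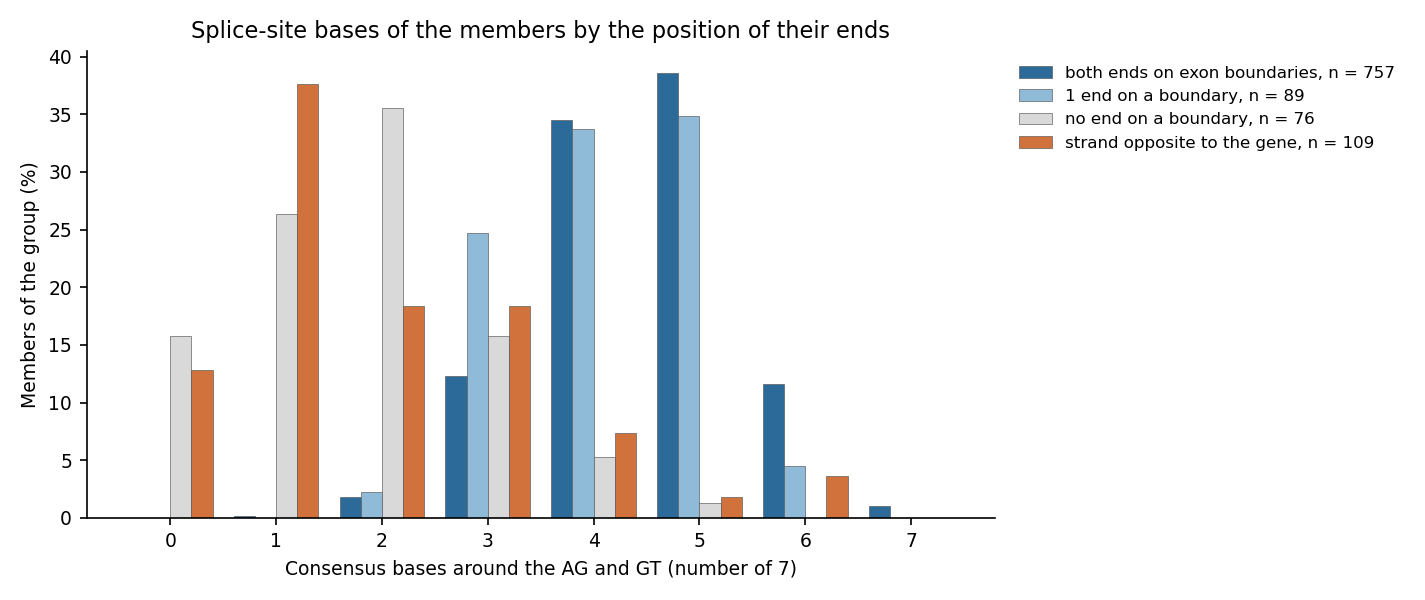
Share of members in each group of ends (vertical axis, percent) by the number of usual splice-site bases among 7 positions around the AG and GT (horizontal axis). Members with both ends or 1 end on a boundary lie mostly at 3 to 6, with medians of 5 and 4, and members with no end on a boundary or on the opposite strand mostly at 0 to 3, with medians of 2 and 1.

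Of the 89 members with 1 end on a boundary, the acceptor end was the matching one in 43 (48.3%, 38.2–58.6%). Of the 76 members with no end on a boundary, 31 lay within 1 exon and 3 had both ends in introns. These 76 had a median length of 391.5 bp and a median of 3 reads, against 546 bp and 4 reads for the 757 members with both ends on boundaries.

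Among the 109 members on the opposite strand, 47 lay within 1 exon of the parent gene. Those with the most reads were in MOM, ENDO2, an endonuclease gene, and AT3G28040, a receptor-like kinase gene, with 9 reads each. A gene annotated on the listed strand overlapped 9 of the 109, and 5 of these had both ends on exon boundaries of that other gene. They were named after their values were seen. Ath_circ_FC0226 in AT1G07120 matched the lncRNA AT1G07119, Ath_circ_FC0914 in ENDO2 the lncRNA AT1G08973, Ath_circ_FC1016 in AT1G75300 the lncRNA AT1G75295, and Ath_circ_FC2327 in AT3G51070 the lncRNA AT3G51075. Ath_circ_FC1650, assigned to the citrate synthase gene CSY3, matched the protein-coding gene AT2G42780. These 5 had 2 to 9 reads and 3 to 6 of the 7 splice-site letters. Of the 6 opposite-strand members with 5 or more such letters, 3 were among them. Ath_circ_FC0226 is shown because its ends, at chr1:2186103-2186573 on the plus strand, resemble those of PETC and not those of MOM.
Ath_circ_FC0226 acceptor: ttctgttgaatgcAGgcgacaaaactccat
Ath_circ_FC0226 donor: catcttctccattagGTaacatgtctgtat

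In the list of the mixed sample were 85 of 1034 members (8.22%, 6.70–10.1%), against 53.0% of short, 10.4% of long and 9.76% of abundant sole circRNAs. Of all 5861 listed circRNAs, 1217 were in it. These shares are descriptions, because the listed reads used for the selection are the mixed sample's own count in such cases. The 85 members made up 6.98% of the 1217 circRNAs of the mixed sample and 340 of its 8987 reads. Their median was 4 reads in the mixed sample (range 2 to 9), and the median listed value of the 949 members outside it was also 4 (range 2 to 9). Their median length was 415 bp (300 to 995), against 539 bp (300 to 994) outside.

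Over all lengths together, members in the mixed sample were on exon boundaries less often, but not among the shortest members. Both ends were on boundaries in 53 of 85 members in the mixed sample (62.4%, 51.7–71.9%), against 704 of 946 outside it (74.4%, 71.5–77.1%), a difference of −12.1 points (−23.0 to −2.09, adjusted p = 0.0357 by Fisher's exact test). Among members of 400 bp or more, an alternative chosen after the data were seen, the difference was −24.7 points (exact adjusted p = 0.000698). The counts there were 25 of 46 members in the mixed sample and 578 of 731 outside it. Among the remaining members, below 400 bp, the direction was the reverse, with the higher share in the mixed sample, and this was not tested. The share on the opposite strand was 12.9% for members of the mixed sample and 10.4% for the others, a difference of 2.58 points (−3.36 to 11.5, exact adjusted p = 0.461). The mixed sample differed from the others in pooling, instrument and read length at once, and these cannot be told apart.

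The mixed sample counted 8 or 9 reads for 8 members, and 3 of these had both ends on exon boundaries. Ath_circ_FC0014 of AT1G16270, a protein kinase gene, had 9 reads and joined exon 4 back to exon 3. Ath_circ_FC4909 of EM1 also had 9 reads. The other 6 had 8 reads. Among them were Ath_circ_FC4917 of IMPA-6, an importin of nuclear import, with 1 end on a boundary, Ath_circ_FC4931 on the opposite strand of the pseudogene AT1G44510, and Ath_circ_FC4959 of AT4G32340, a tetratricopeptide repeat gene, with no end on a boundary. The remaining ones, named after their values were seen, were Ath_circ_FC4918 of the tetratricopeptide repeat gene TPR3 and Ath_circ_FC4936 of AT1G68580, both with both ends on boundaries, and Ath_circ_FC4926 of the lncRNA AT1G18415, with no end on a boundary.

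A junction that also exists in linear sequence can give the same reads without a ring, so 60 bases across each junction were searched in the genome and the annotated transcripts. A match with at most 3 differing bases was found for 2 of 1034 members (0.193%, 0.0531–0.703%), each with 2 bases differing. They were Ath_circ_FC3990 of SDN3, a nuclease that degrades small RNAs, which matched a transcript of its own gene, and Ath_circ_FC5341 of AT5G07570, a glycine and proline-rich protein gene, which matched the genome. A search with the 40 central bases and at most 2 differing also found Ath_circ_FC0743 of AT1G50910, with 0 differing bases. All 3 were named after their values were seen.
Ath_circ_FC3990 junction: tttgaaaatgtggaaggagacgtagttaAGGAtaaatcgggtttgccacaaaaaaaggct
Ath_circ_FC5341 junction: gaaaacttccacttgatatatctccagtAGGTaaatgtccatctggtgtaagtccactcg

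A repeat shared by both ends leaves the exact position of the junction undefined by as many bases. Its median was 2 bases for members with both ends or 1 end on boundaries and 0 for members with no end on a boundary or on the opposite strand. The letters AG before the acceptor and at the end of the donor exon alone give 2 shared bases. The longest repeats were in 2 members of the mixed sample. Ath_circ_FC4917 of IMPA-6, with 1 end on a boundary, shared the 10 bases gaacaggtat, and Ath_circ_FC5237 of RPN12a, a subunit of the proteasome, the 9 bases aggttaaga on the opposite strand of its gene. Of 4 members with 8 shared bases, 3 were in the mixed sample and 1 had both ends on exon boundaries. The longest of them, Ath_circ_FC5598 of GAD3, a glutamate decarboxylase gene, shared gtcgttga on the opposite strand. The others, named after their values were seen, were Ath_circ_FC5341 of AT5G07570, Ath_circ_FC5356 on the opposite strand of the pseudogene AT5G35535, and, outside the mixed sample and with both ends on boundaries, Ath_circ_FC2630 of AT4G13800.
Ath_circ_FC4917 junction: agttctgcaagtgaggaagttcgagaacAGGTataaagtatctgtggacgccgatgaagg
Ath_circ_FC5237 junction: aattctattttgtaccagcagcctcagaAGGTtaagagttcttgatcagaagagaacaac

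The parent genes covered many functions. By words in their product descriptions, 300 of 1031 genes fell into at least 1 of 11 lists, and a gene can be in several. Shares are given beside those of all 27444 protein-coding nuclear genes and of the 3113 annotated parent genes of nuclear exonic circRNAs, with no test. Between 12 and 38 members belonged to each list, and the median of listed reads was between 3 and 6.

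RNA processing held 32 members (3.10%, against 1.92% of coding genes and 3.21% of parent genes). Of these, 29 had both ends on exon boundaries and 0 were on the opposite strand, which allows a share of up to 9.38%. The examples with the most reads, 8 each, were Ath_circ_FC2122 of PMH2, an RNA helicase of mitochondria, on exon 3, and Ath_circ_FC0307 of AT1G11170, on exons 2 to 4, which is in the list for the words trans-splicing-like in its description. Ribosome and translation held 35 members (3.39%, against 2.19% of coding genes and 3.08% of parent genes), 26 of them with both ends on boundaries. Ath_circ_FC0276 was exon 7 of AT1G09640, an elongation factor gene, and Ath_circ_FC2439 was exon 5 of AT3G59670, both with 9 reads.

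Protein kinases held 37 members (3.59%, against 3.24% of coding genes and 3.79% of parent genes), of which 26 had both ends on boundaries and 7 were on the opposite strand. The examples with the most reads, 9 each, were in CPK7, a calcium-dependent protein kinase gene, and in the kinase gene AT2G40120, where Ath_circ_FC1599 was exon 4. Ubiquitin and proteasome genes held 32 members (3.10%, against 5.47% of coding genes and 3.37% of parent genes), 25 with both ends on boundaries. Ath_circ_FC1303 joined exon 4 back to exon 2 of UBP4, a deubiquitinating enzyme, and Ath_circ_FC0188 joined exon 5 back to exon 4 of AT1G05380, both with 8 reads. AT1G05380 and AT1G48570, with Ath_circ_FC0703 at 8 reads, led the 33 genes listed as transcription factors (3.20%, against 4.67% of coding genes and 3.92% of parent genes), 28 of which had both ends on boundaries. Both genes are in this list for the words zinc finger in their descriptions, and AT1G05380 is in the ubiquitin list for the word RING.

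DNA repair and chromatin held 17 members (1.65%, against 1.19% of coding genes and 1.57% of parent genes), 15 with both ends on boundaries. Of those 15, the most reads were in RAD4 and in Ath_circ_FC2197 on exons 3 to 6 of the bromodomain gene AT3G27420, with 9 reads each. MOM, on the opposite strand, also had 9. Vesicle traffic and cytoskeleton held 23 members (2.23%, against 1.68% of coding genes and 2.47% of parent genes), 19 with both ends on boundaries. In VAMP727, Ath_circ_FC2378 covered exons 2 to 4, and in POK2, a kinesin that orients cell division, Ath_circ_FC2067 was exon 2 alone, both with 9 reads. Membrane transport held 38 members (3.69%, against 3.09% of coding genes and 4.34% of parent genes), of which 26 had both ends on boundaries and 5 were on the opposite strand. Ath_circ_FC1154 in the ureide permease gene UPS2 and Ath_circ_FC2811 in DTX35, an efflux carrier gene, both spanned 2 exons and had 9 reads. RPN12a is in this list for the word non-ATPase in its description.

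Carbohydrate and cell wall genes held 37 members (3.59%, against 3.23% of coding genes and 2.92% of parent genes), 27 with both ends on boundaries, among them AT1G78280 (Ath_circ_FC1059) and the pectin acetylesterase gene AT4G19410 (Ath_circ_FC2706), with 9 reads each. Repeat proteins held 12 members (1.16%, against 2.06% of coding genes and 1.35% of parent genes), 7 with both ends on boundaries. Ath_circ_FC2415 of BIGYIN, a gene of organelle division, and Ath_circ_FC3624 of BSK8, a kinase of brassinosteroid signalling, had 8 reads each.

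Photosynthesis and plastid genes held 16 members (1.55%, against 0.758% of coding genes and 1.57% of parent genes). Only 6 of the 16 had both ends on exon boundaries, and 6 were on the opposite strand, against 73.4% and 10.6% of all members. Their median length was 402.5 bp, against 526.5 bp for all members, and the part of length in these counts was not tested. The members with the most reads among those on boundaries were Ath_circ_FC2387 on exons 3 to 5 of PUR5, a plastid enzyme of purine synthesis, with 9 reads, and that of PETC with 8. The 6 on the opposite strand, named after their values were seen, were in NPQ4, which protects photosystem II from excess light, PSBY, a subunit of that photosystem, LHCA4, an antenna protein of photosystem I, CT-BMY, a chloroplast amylase, PDE334, a subunit of the chloroplast ATP synthase, and AT2G35490, a plastid lipid-associated protein gene. They had 3, 4, 3, 4, 6 and 3 listed reads and none was in the mixed sample. Of the other 4, Ath_circ_FC1406 of PSBW and Ath_circ_FC2485 of CSP41A had no end on a boundary, with 6 reads each, and those of NAKR2 and AT3G26070 had 1.

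The article names 2 of the members, and both were on the opposite strand. Its supplement lists divergent primers for Ath_circ_FC0228, in the set that the article cites for its qRT-PCR of selected circRNAs over growth stages. A figure shows Ath_circ_FC0914 in a network of predicted miRNA binding. Ath_circ_FC0228 lay at chr1:2239553-2239860 within exon 2 of AT1G07280, a tetratricopeptide repeat gene, with 6 reads, 308 bp and 2 of the 7 splice-site letters. Ath_circ_FC0914 lay at chr1:25597160-25597612 across exons 3 to 5 of ENDO2 with 9 reads, 453 bp and 3 of these letters, on exon boundaries of the lncRNA AT1G08973.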

How the data were processed

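The authors filtered the reads, aligned them to TAIR10 with TopHat2 and Bowtie2 2.0.5, called back-spliced junctions with find_circ and kept those with at least 2 reads. The deposited list of all samples gives every circRNA a score that its header calls a mean of junction reads. The mixed sample's deposited list holds a count of back-spliced reads without normalization. Neither allows an error over samples. The listed start counts from 0, so 1 was added.

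Ends were compared with the exons of all transcripts of the parent gene in RefSeq TAIR10.1, whose nuclear sequences are those of TAIR10, with no tolerance. Exons were counted in the transcript that fitted best. Junctions were searched with blastn 2.17.0. Sequences are shown for some named members only. Shares have Wilson 95% intervals. For a count of 0, the share allowed is 3 divided by the number counted over, which is below the Wilson upper limit. Python 3.11.15, scipy 1.17.1 and pandas 2.3.3 were used, figures were drawn with matplotlib 3.10.9, and the scripts were tested on simulated intervals and shares.

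The members and gene lists were chosen with earlier results of these data known. Named were 2 members for each list with the most reads and both ends on boundaries, those with the most or longest exons, most reads in the mixed sample or on the opposite strand, longest repeats, those at the limits, and those the article names. Alternatives varied reads, sole status, tolerance, transcripts and the mixed sample.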

Additional observations from a re-analysis of the deposited data

How the results depend on the processing

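Of 74 values recomputed under alternatives for 15 results, 66 kept their direction and side of the threshold or stayed within the interval. The number of members has no interval, so a wide fixed band around 1034 was used for it. The 758 members with at least 3 reads were within that band. The number of members was 623 with fewer than 5 listed reads, by construction. With the boundaries of only the transcript with the most exonic bases, 66.2% of members had both ends on boundaries. With no differing base allowed in 60 bases, 0% of junctions were found in linear sequence, and 0.29% with 40 bases and at most 2 differing. The difference in boundary share against abundant circRNAs was −2.97 points when these were of the same length range. Against long circRNAs it was 1.22 points outside the mixed sample and 6.88 points with at least 3 reads. The difference in opposite strand was 3.27 points against long circRNAs with at least 3 reads and 8.36 points outside the mixed sample, and −6.04 points against abundant circRNAs without genes overlapped on the other strand. The causes were not tested. On the strand of the gene only, an alternative chosen after the data were seen, boundary shares of members differed by 30.6 points from short, 11.5 from long and 0.967 from abundant circRNAs. No paired analysis was possible because each condition had 1 library and the lists give no value for each. The least number of reads accepted was 2, and 276 members had 2.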
